A study of Rattus norvegicus with 4 samples.

Results

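The genes described here are 10 rat genes that the tumour suppressor p53 switches on after DNA damage: Cdkn1a, Mdm2, Ccng1, Bax, Bbc3, Phlda3, Sesn1, Plk2, Plk3 and Rrm2b. They were chosen by name, and their probes were found through the accession that the array files give for each spot. Of the 10 genes, 9 had a probe, with 11 probes on 20 spots of each array, out of 30367 probes in all. No accession mapped to Sesn1, which is not analysed here. All 9 genes passed the filter on dim probes and are among the 22822 genes tested.

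Total RNA of the spinal dorsal horn, where sensory fibres end in the cord, was measured in male rats aged 6 weeks on Agilent 2-colour arrays. There were 2 arrays of rats given oxaliplatin, a platinum chemotherapy drug that causes painful neuropathy, and 2 arrays of rats given its vehicle, both on day 10. On every array, per the labels, the Cy5 channel held RNA of the oxaliplatin or vehicle rats and the Cy3 channel held RNA of untreated male rats of the same age, with no dye swap. The strain, the dose, the vehicle and the number of rats behind each extract are not given in the sources used here. Each group lay on 1 slide of its own, so slide and treatment cannot be told apart. The oxaliplatin arrays were scanned on 1 day and the vehicle arrays on 2 days. The p-values measure the spread between the 2 arrays of a group, which for vehicle includes any difference between scan days. Fewer cells of a type and less RNA per cell cannot be told apart in such tissue either.

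Platinum drugs form adducts and crosslinks on DNA. Cells that sense such damage stabilise p53, a transcription factor, which then raises genes that halt the cell cycle, supply repair, limit p53 itself or start apoptosis. Cdkn1a (p21) and Mdm2 are among the targets most often read as a sign of p53 activity. In the cord the platinum drugs are thought to enter poorly, while sensory ganglia outside it are more exposed.

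Each array had 62976 spots, 4259 of them controls. Between 82.7% and 85.4% of the probes cleared the background in Cy5, and between 76.8% and 88.1% in Cy3. Oxaliplatin replicate 2 was the dimmest array in Cy3, with a median signal of 283.5 scanner units beside 494, 564 and 530 for the others. In Cy5 the medians were 993 and 1023.5 on the oxaliplatin arrays and 913 and 948 on the vehicle arrays. Signals given in scanner units below are not normalised between arrays. Markers of the labelled tissue and of others bear on how the channels are read. All 5 measured Hox genes of the cord were well above background in both channels on every array, with a median log2 Cy5/Cy3 ratio, averaged over the groups, of -0.98. The 7 measured forebrain genes, which include Emx2 and have no known place in the dorsal horn, were all called higher in Cy5 (29.3% of all genes), with a median of 3.97. Of 14 genes of Schwann cells and sensory ganglia, 13 were called higher in Cy5, with a median of 2.80. Of 10 myelin genes, 10 were called lower (26.3% of all genes). Transcripts typical of tissue outside the cord were thus more abundant in the Cy5 channel of both groups than in Cy3, which the labels of tissue and channel do not provide for. Whether those labels hold was not tested, so what is called treated or untreated RNA below is so by the labels alone. Unless a single channel is named, every group difference below is taken in the log2 Cy5/Cy3 ratio, as oxaliplatin minus vehicle, with the dyes as the labels give them.

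Promoter sequences from RefSeq (build GRCr8), windows of 300 bases that lie mostly before the start of the gene, were found for 7 of the 10 genes and are shown because p53 acts through a known element in DNA. The p53 half-site was searched by its consensus, which reads alike on both strands. It stood without a mismatch in 3 of the 7 promoters, those of Cdkn1a, Ccng1 and Sesn1, and in 7.98% of all 33469 promoters of this length. A match is a description of the letters and not a site shown to be bound. The promoters of the 2 of these genes that were measured are given 5′ to 3′ in the direction of the gene, with the half-site in capitals.
Cdkn1a, chr20:7150682-7150981, plus strand: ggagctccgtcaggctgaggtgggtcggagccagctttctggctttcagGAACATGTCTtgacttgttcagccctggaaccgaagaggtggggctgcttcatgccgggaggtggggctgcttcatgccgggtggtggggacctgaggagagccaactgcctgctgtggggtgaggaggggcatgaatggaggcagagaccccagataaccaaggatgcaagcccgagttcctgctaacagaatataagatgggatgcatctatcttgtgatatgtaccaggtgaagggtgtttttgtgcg
Ccng1, chr10:25684827-25685126, minus strand: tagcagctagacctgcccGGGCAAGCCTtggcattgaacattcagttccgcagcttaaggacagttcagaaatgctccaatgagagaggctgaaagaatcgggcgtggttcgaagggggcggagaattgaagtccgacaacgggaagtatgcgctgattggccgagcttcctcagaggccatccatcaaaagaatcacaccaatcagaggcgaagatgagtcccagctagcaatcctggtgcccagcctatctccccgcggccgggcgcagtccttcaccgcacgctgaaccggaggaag
In Cdkn1a the half-site GAACATGTCT began 201 bases before the gene's start, and the 10 bases right after it fitted the consensus at all but 1 position. In Ccng1 the half-site GGGCAAGCCT began 232 bases before the start, and the 10 bases right before it fitted at all but 1 position. In Sesn1 the half-site was AAGCTTGTTT. The windows of Mdm2, Phlda3, Plk2 and Plk3 held 0 matches.

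The comparison of oxaliplatin with vehicle asks whether the drug left a sign of DNA damage signalling in the cord. None of the 9 p53 target genes differed between the groups past the threshold of an adjusted p of 0.05 in limma's moderated test, and neither did any other gene (0 of 22822, 0%). At an unadjusted p under 0.05 there were 2 of the 9, Plk3 with a higher and Rrm2b with a lower ratio, against 14.6% of all genes. Of the 9 genes, 5 had a higher ratio on the oxaliplatin arrays (51.2% of all genes) and 4 a lower one, and the median difference was 0.081 (log2), beside 0.0055 over all genes tested. The groups did not overlap, with oxaliplatin higher, for 4 genes (27% of all genes), and with oxaliplatin lower for 1 (22.2%), together 5 of the 9 against 49.2% of all genes in either direction. Cdkn1a and Mdm2 were among the 4, with differences of 0.12 and 0.081, beside standard errors of 0.11 each.

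The 95% confidence interval of the fitted difference reached no further up than 1.28-fold for Mdm2, 1.31-fold for Cdkn1a, 1.38-fold for Phlda3, 1.64-fold for Ccng1 and 1.67-fold for Plk3. For Bax, Plk2, Bbc3 and Rrm2b the upper ends were 1.13-fold, 1.18-fold, 1.23-fold and 0.908-fold. A 2-fold higher ratio lay outside these intervals, which rest on 1 probe per gene and the main processing. The other probe of Cdkn1a allowed more, with an interval up to 0.93 on the log2 scale against 0.39 for the probe used. These intervals hold the spread between arrays on 1 slide and no difference between slides.

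Cdkn1a encodes p21, the inhibitor of cyclin-dependent kinases that stops the cell cycle. Its brighter probe, A_64_P123895, had median Cy5 signals, before normalisation, of 20733 and 20422 scanner units on oxaliplatin replicates 1 and 2, against 15973 and 11750 on vehicle replicates 1 and 2. In Cy3 the signals were 9325 and 5352 on the oxaliplatin arrays and 10483 and 6920 on the vehicle arrays, beside local backgrounds of 40.5 to 47. The normalised log2 ratios were -0.17 and -0.18 on the oxaliplatin arrays and -0.30 and -0.29 on the vehicle arrays. The groups did not overlap, and the arrays of a group lay within 0.013 of each other. The difference of 0.12 ± 0.11 (SE, n = 2 arrays per group) did not pass (limma, adjusted p = 0.633), where the moderated error draws on the spread of all genes. It was 0.081 to 0.27 over the alternatives tried. The dimmer probe of the gene, A_44_P914438, with 1 spot per array, had ratios of 0.061 and 0.019 on the oxaliplatin arrays and 0.24 and -0.69 on the vehicle arrays. There the vehicle arrays lay on both sides of the oxaliplatin arrays, and the difference in a fit over all probes was 0.26 ± 0.28 (adjusted p = 0.683). Vehicle replicate 2 stood apart in the Cy3 signal of that probe, with 3996 scanner units, against 1799 on vehicle replicate 1 and 1806 and 985 on the oxaliplatin arrays.

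Mdm2 encodes the ubiquitin ligase that marks p53 for destruction, and is itself a p53 target, which closes a feedback loop. Its brighter probe, A_44_P634946, had ratios of -0.040 and 0.034 on the oxaliplatin arrays and -0.053 and -0.11 on the vehicle arrays. The groups did not overlap, though oxaliplatin replicate 1 and vehicle replicate 1 lay close together, and the difference was 0.081 ± 0.11 (adjusted p = 0.772; 0.018 to 0.24 over the alternatives). The second probe, A_43_P16885 had ratios of -0.0095 and -0.099 on the oxaliplatin arrays and -0.10 and 0.085 on the vehicle arrays. Its groups overlapped, and its difference of -0.045 ± 0.12 (adjusted p = 0.896) had the opposite sign.

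Ccng1 encodes cyclin G1, a p53 target that takes part in the control of Mdm2. Its probe gave Cy5 signals, before normalisation, of 15700 and 17760 scanner units on the oxaliplatin arrays and 12879 and 11952 on the vehicle arrays. The normalised log2 Cy5 signals were 13.19 and 13.32 on the oxaliplatin arrays and 13.19 and 13.00 on the vehicle arrays, where the groups overlapped. Its ratios were 0.75 and 1.17 on the oxaliplatin arrays and 0.86 and 0.52 on the vehicle arrays. The groups overlapped, with oxaliplatin replicate 2 highest and vehicle replicate 2 lowest. The difference was 0.27 ± 0.18 (adjusted p = 0.519), and 0.066 to 0.48 over the alternatives. Ccng1, Cdkn1a and Mdm2, the arrest and feedback genes, all had differences above 0 in each alternative tried, and none passed in any. This was not particular to them, as Phlda3 and Plk3 also lay above 0 in each, while Bax and Rrm2b lay below 0 in each. Part of it was fixed beforehand. For Cdkn1a, Mdm2, Phlda3, Plk3 and Rrm2b the groups did not overlap, so leaving out an array could not turn the sign.

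**Figure D1:**
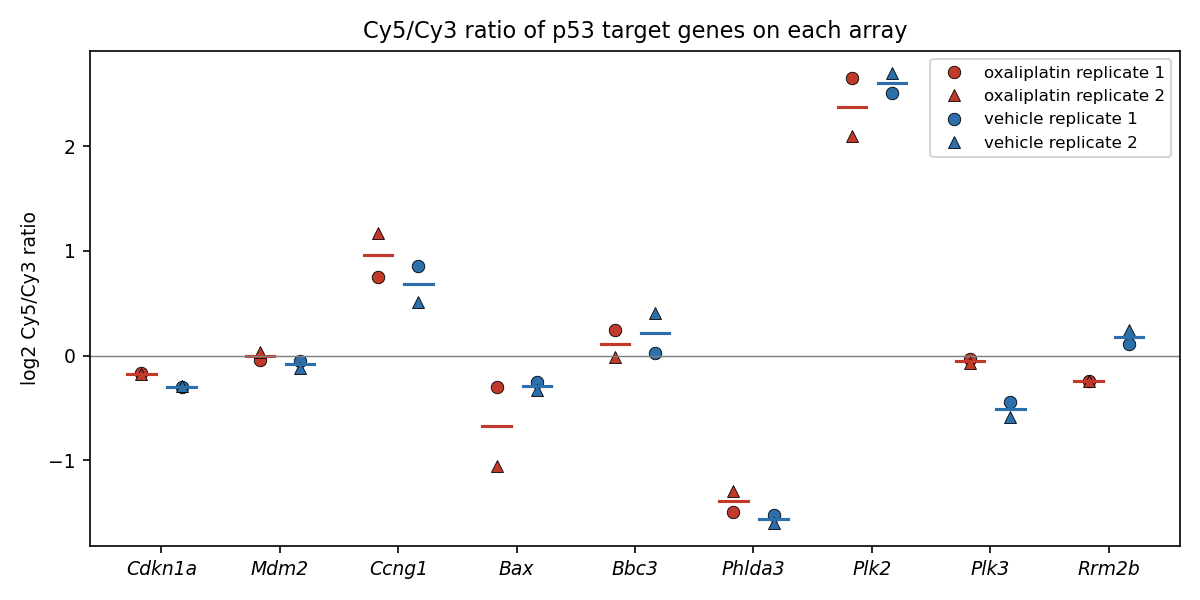
Log2 Cy5/Cy3 ratio (vertical axis) of the 9 measured p53 target genes on each array, oxaliplatin arrays in red left of vehicle arrays in blue, circles for replicate 1 and triangles for replicate 2, with a bar at each group's mean. Plk3 and Rrm2b show the clearest separation of the groups, in opposite directions, while Plk2 and Phlda3 lie far from 0 on all 4 arrays.

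Bax and Bbc3 belong to the branch that starts apoptosis: Bax opens the outer mitochondrial membrane, and Bbc3 (PUMA) frees it by binding the proteins that hold it back. Bax had ratios of -0.30 and -1.05 on the oxaliplatin arrays and -0.25 and -0.33 on the vehicle arrays. Oxaliplatin replicate 2 alone stood low, and oxaliplatin replicate 1 lay between the vehicle arrays. The difference was -0.38 ± 0.23 (adjusted p = 0.477). Without oxaliplatin replicate 1 it was -0.76, and without oxaliplatin replicate 2 it was -0.0081, so the value was decided by 1 array. The gene had 1 spot per array, and its normalised log2 Cy3 signal on oxaliplatin replicate 2 was 13.24, against 12.41 on oxaliplatin replicate 1 and 12.48 and 12.40 on the vehicle arrays. In Cy5 the 4 arrays lay within 12.08 to 12.23. Bbc3 had ratios of 0.24 and -0.012 on the oxaliplatin arrays and 0.024 and 0.41 on the vehicle arrays. The groups overlapped, the difference was -0.10 ± 0.17 (adjusted p = 0.811), and its sign turned with median centring (0.056), without oxaliplatin replicate 2 (0.027) and without vehicle replicate 2 (0.092).

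Phlda3 encodes a small protein that competes with the kinase Akt for membrane lipids and so restrains survival signalling. Its ratios were -1.49 and -1.29 on the oxaliplatin arrays and -1.52 and -1.60 on the vehicle arrays. The groups did not overlap, though both replicates 1 lay close together, and oxaliplatin replicate 2 was the least negative. The difference was 0.17 ± 0.13 (adjusted p = 0.551), and 0.072 to 0.27 over the alternatives.

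Plk2 and Plk3 encode polo-like kinases of the stress response, and both are also induced by activity or growth signals in several cell types. The ratios of Plk3 were -0.035 and -0.074 on the oxaliplatin arrays and -0.44 and -0.58 on the vehicle arrays, so that the gap between the groups was wider than the gap within either. The difference was 0.46 ± 0.12, a 1.37-fold higher ratio (95% interval 1.13 to 1.67), with an unadjusted p of 0.00651 that did not pass over all genes (adjusted p = 0.294). Over all genes tested, 6.72% had a larger difference in either direction. Over the alternatives the difference was 0.39 to 0.54, and it passed in none. The signals behind it were dim, with 470 and 488 scanner units in Cy5 on the oxaliplatin arrays and 481 and 586 on the vehicle arrays. In Cy3 they were 273 and 167 on the oxaliplatin arrays and 426 and 531 on the vehicle arrays. The Cy3 channel, RNA of untreated rats by the labels, thus separated the groups more than Cy5 did. Plk2 had ratios of 2.65 and 2.10 on the oxaliplatin arrays and 2.50 and 2.70 on the vehicle arrays. The groups overlapped, with oxaliplatin replicate 2 lowest, and the difference was -0.23 ± 0.19 (adjusted p = 0.613). It was 0.049 without oxaliplatin replicate 2 and -0.50 without oxaliplatin replicate 1.

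Rrm2b encodes a subunit of ribonucleotide reductase that p53 raises to supply nucleotides for repair. Its ratios were -0.24 and -0.24 on the oxaliplatin arrays and 0.11 and 0.24 on the vehicle arrays. Both oxaliplatin arrays lay below 0 and both vehicle arrays above it, opposite signs of a kind that 6.07% of all genes showed in one direction or the other. The difference was -0.42 ± 0.12 (unadjusted p = 0.00958, adjusted p = 0.294). It kept that sign in each of 14 alternatives, some of which, such as the filters on dim probes, could not move it. Nor could leaving out an array turn the sign of the difference, as the groups did not overlap. Its size varied with the processing. It was -0.51 with no background subtraction, -0.63 under median centring, -0.70 with a normexp offset of 0, which was chosen after seeing the data, and -1.07 both from the log ratios of the scanner files and from the authors' value table, which differ in background and normalisation at once. Without vehicle replicate 2 it was -0.35. Its signal lay close to background. Its Cy5 signals were 145 and 176 scanner units on the oxaliplatin arrays and 152 and 131 on the vehicle arrays, beside local backgrounds of 61 to 65. In Cy3 the signals were 115 and 88 on the oxaliplatin arrays and 84.5 and 61 on the vehicle arrays, beside 35 to 40.

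**Figure D2:**
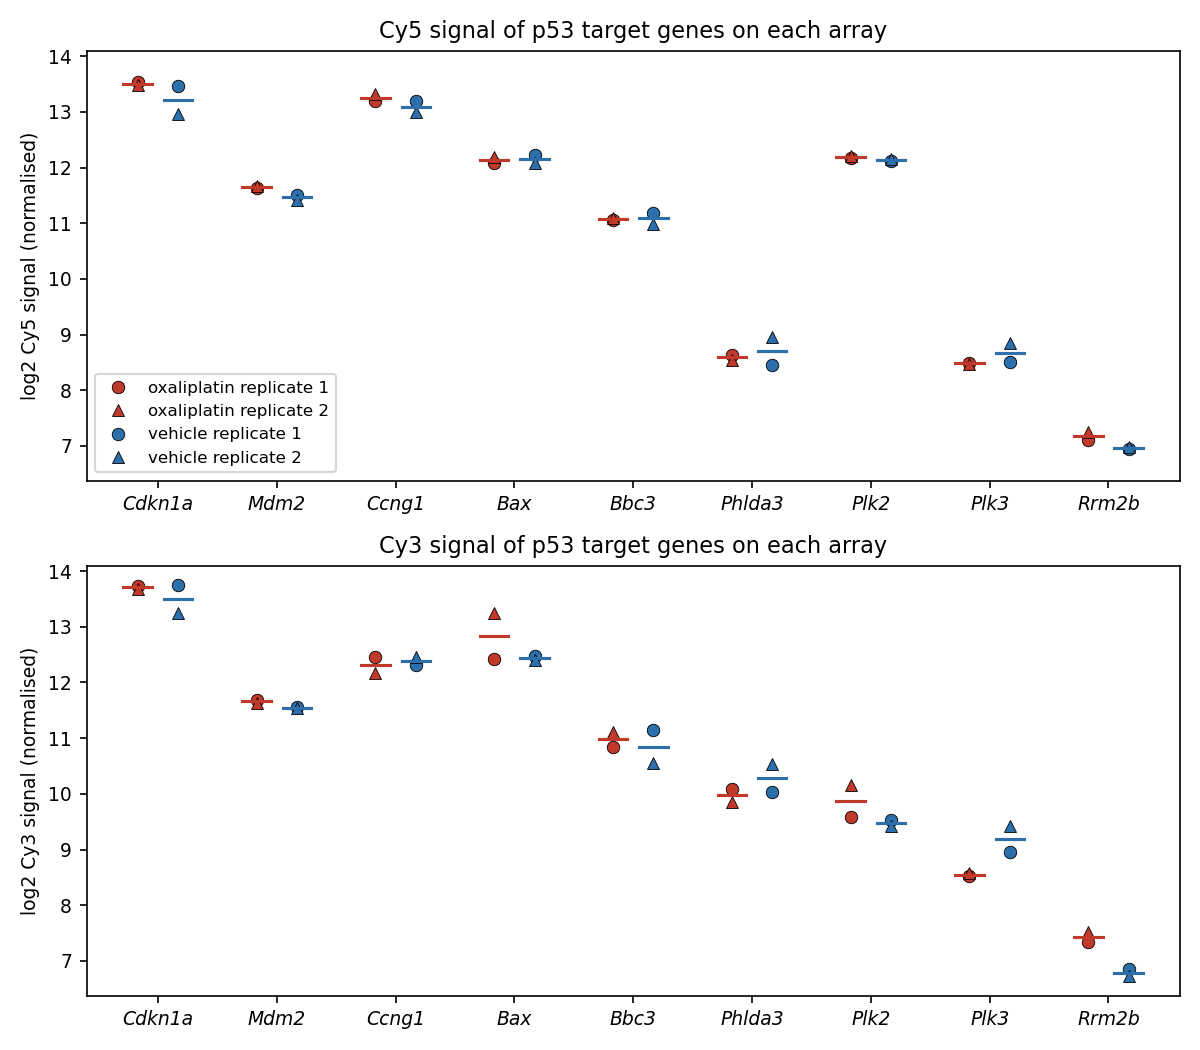
Normalised log2 signal (vertical axes) of the 9 genes on each array, Cy5 in the upper panel and Cy3 in the lower one, with oxaliplatin arrays in red left of vehicle arrays in blue and a bar at each group's mean. The groups lie closer in Cy5 than in Cy3 for Plk3, Rrm2b, Bax and Plk2, whose mean Cy3 signals differed by 0.39 to 0.64 in size.

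Each channel was then fitted by itself, after quantile normalisation of that channel over the 4 arrays. In Cy5, which holds the treated RNA by the labels, 0 of the 9 genes and 0 of 22822 genes passed (0%), with 0 of the 9 and 19.5% of all genes at an unadjusted p under 0.05. In Cy5, 5 of the 9 were higher with oxaliplatin (43% of all genes), and the median difference was 0.055, beside -0.038 over all genes. Both oxaliplatin arrays were apart from both vehicle arrays for 5 of the 9 in Cy5, 4 higher (25% of all genes) and 1 lower (34.5%), against 59.5% of all genes in either direction. The log2 Cy5 signal of Cdkn1a was 13.54 and 13.48 on the oxaliplatin arrays and 13.46 and 12.97 on the vehicle arrays. Vehicle replicate 2 was the low one, and the difference of 0.30 ± 0.18 (adjusted p = 0.399) was 0.54 without vehicle replicate 1. With the mean over its probes it was -0.0038. The Cy5 signal of Mdm2 was 11.64 and 11.67 on the oxaliplatin arrays and 11.51 and 11.43 on the vehicle arrays, a difference of 0.18 ± 0.083 (adjusted p = 0.3). That of Rrm2b was 7.10 and 7.25 on the oxaliplatin arrays and 6.95 and 6.97 on the vehicle arrays, a difference of 0.21 ± 0.092 (adjusted p = 0.289). All 3 were higher on both oxaliplatin arrays without passing in the fit of all 4 arrays. Without vehicle replicate 1, Phlda3 was at -0.37 and Plk3 at -0.36 in Cy5, both lower on the oxaliplatin arrays. The 95% interval in Cy5 reached no further up than 1.72-fold, for Cdkn1a.

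In Cy3, which by the labels held untreated RNA on the arrays of both groups, 0 of the 9 and 0 of all genes passed (0%), with 2 of the 9, Plk3 and Rrm2b, and 21.2% of all genes at an unadjusted p under 0.05. In this channel 6 of the 9 were higher on the oxaliplatin arrays (45.5% of all genes). The groups were apart for 4 of the 9, 3 higher (25.6% of all genes) and 1 lower (32.6%), against 58.2% in either direction. The log2 Cy3 signal of Plk3 was 8.53 and 8.57 on the oxaliplatin arrays and 8.96 and 9.42 on the vehicle arrays, a difference of -0.64 ± 0.20 (adjusted p = 0.183). Without vehicle replicate 1 it was -0.87. In Cy5 Plk3 differed by -0.19 ± 0.14, so its ratio was higher on the oxaliplatin arrays while its signal was lower there in both channels. For Rrm2b the log2 Cy3 signal was 7.34 and 7.52 on the oxaliplatin arrays and 6.85 and 6.73 on the vehicle arrays, a difference of 0.64 ± 0.16 (adjusted p = 0.16). Its ratio was lower on the oxaliplatin arrays while its signal was higher there in both channels. Of the 9 genes, 4 (Phlda3, Plk2, Plk3 and Rrm2b) had a ratio that differed in the direction opposite to both channels, as did 55.1% of all genes. For 6 of the 9 the difference in Cy3 was larger in size than that in Cy5, as it was for 15509 of all 22822 genes. Plk3 and Rrm2b, with the smallest p in the ratio, were also the genes of the 9 whose Cy3 signal differed most between the slides. Cy3 is the denominator of the ratio, so opposite differences in Cy3 and in the ratio are partly arithmetic. Over all genes the difference in the ratio had a correlation of -0.66 with that in Cy3 and of -0.18 with that in Cy5.

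**Figure D3:**
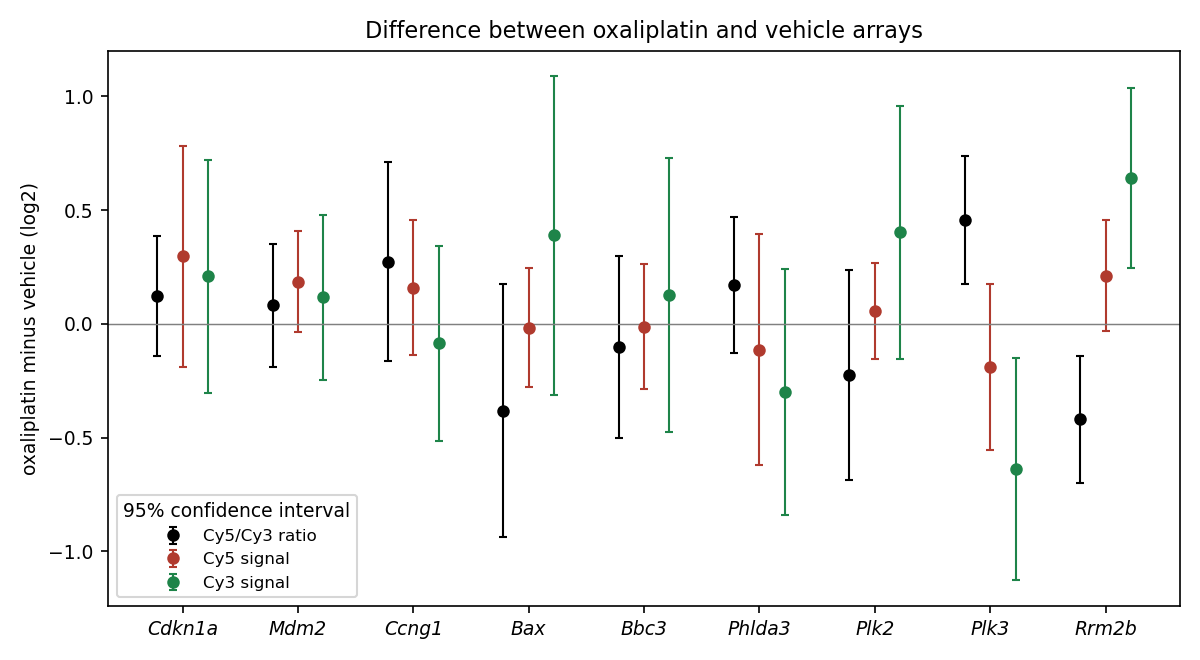
Oxaliplatin minus vehicle on the log2 scale (vertical axis) for each of the 9 genes, in the Cy5/Cy3 ratio (black), in Cy5 alone (red) and in Cy3 alone (green), with 95% confidence intervals from the fit. The intervals in Cy5 alone include 0 for all 9 genes, and those of the ratio and of Cy3 leave out 0 for Plk3 and Rrm2b before adjustment.

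The Cy5 channel was also set against the Cy3 channel of the same arrays, averaged over both groups. Of the 9, 3 had a mean ratio above 0 (54.1% of all genes). This compares treated or vehicle RNA with untreated RNA, and dye, extract and treatment cannot be told apart in it. Of the 9 genes, 2 were higher in Cy5 (29.3% of all genes), 4 were lower (26.3%) and 3 did not pass, together 6 of the 9 called against 55.6% of all genes. Plk2 was higher by 2.49 ± 0.097 (log2, SE, n = 4 arrays; limma, adjusted p = 5.51e-06), a 5.61-fold ratio that 0.565% of all genes exceeded. Its Cy5 signal was 7282 and 7869 scanner units on the oxaliplatin arrays and 5731 and 6060 on the vehicle arrays. Its Cy3 signal was 562 and 477 on the oxaliplatin arrays and 629 and 522 on the vehicle arrays. Ccng1 was higher by 0.82 ± 0.092 (adjusted p = 4.29e-04). Phlda3 was lower, at -1.47 ± 0.063 (adjusted p = 7.59e-06), with a ratio below 0 on all 4 arrays. Bax was lower, at -0.48 ± 0.12 (adjusted p = 0.0118), a call that median centring ended (-0.22, adjusted p = 0.115). Plk3 was lower, at -0.28 ± 0.059 (adjusted p = 0.00639), a call that ended without vehicle replicate 2 (-0.25, adjusted p = 0.0591). Cdkn1a was lower, at -0.23 ± 0.056 (adjusted p = 0.011), but median centring turned the sign (0.16, adjusted p = 0.104), and the call also ended when either vehicle array was left out (adjusted p = 0.0714 without replicate 1 and 0.0702 without replicate 2) and with the mean over its probes (-0.16, adjusted p = 0.137). Mdm2, Rrm2b and Bbc3 stood at -0.043, -0.033 and 0.17 and did not pass. Bbc3 passed with median centring (0.30, adjusted p = 0.0178), and so did Rrm2b (-0.26, adjusted p = 0.0292).

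The ratios of Plk2, Ccng1 and Phlda3 held on oxaliplatin and vehicle arrays alike, and lists of other genes differed between the channels beside them. Plk2, which neuronal activity induces, stood beside the list of activity and early stress genes, of which 10 of 12 were called higher in Cy5 (29.3% of all genes) and 0 lower (26.3%), with a median of 1.39. Arc, an activity-induced gene of neurons, had ratios of 3.07 and 3.18 on the oxaliplatin arrays and 2.72 and 2.80 on the vehicle arrays. Of the 7 forebrain genes 7 were higher in Cy5, and their median ratio was 4.24 and 3.75 on the oxaliplatin arrays and 3.94 and 3.86 on the vehicle arrays. All 10 myelin genes were lower in Cy5, with medians of -1.35 and -1.03 on the oxaliplatin arrays and -1.47 and -1.42 on the vehicle arrays. The log2 of the summed normalised Cy5 signal of the forebrain list was 14.9 and 14.9 on the oxaliplatin arrays and 14.8 and 14.8 on the vehicle arrays, and in Cy3 it was 11.1 and 11.3 on the oxaliplatin arrays and 11.2 and 11.2 on the vehicle arrays. Between oxaliplatin and vehicle none of these lists held a called gene, but their median differences in the ratio were 0.40 for the 10 myelin genes, 0.42 for the 8 astrocyte genes, -0.39 for the 5 Hox genes and 0.048 for the 7 forebrain genes. The part of these other tissues in the ratios of the p53 targets was not tested.

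Other genes of the pathway were counted by list. Of 36 other p53 targets 29 were measured, of which 0 passed in either direction between oxaliplatin and vehicle. Their median difference was -0.088, with 10 above 0 (51.2% of all genes) and 19 below. The oxaliplatin arrays lay above the vehicle arrays for 6 (27% of all genes) and below for 11 (22.2%). The 4 members with the smallest p had lower ratios on the oxaliplatin arrays. The next, Ei24, named here after its values were seen, had the largest difference of the list and was higher, by 0.63 ± 0.22 (adjusted p = 0.308), with a Cy3 difference of -0.75. Rps27l, a ribosomal protein paralogue induced by p53, had 0.29 and 0.22 on the oxaliplatin arrays against 0.77 and 0.71 on the vehicle arrays, a difference of -0.49 ± 0.11 (adjusted p = 0.294). Zmat3, an RNA-binding target, differed by -0.38, the metabolic enzyme Tigar by -0.53 and the nuclease Aen by -0.40, each with an adjusted p of at least 0.297. Tigar was -0.74 without oxaliplatin replicate 1 and -0.31 without oxaliplatin replicate 2. With the mean over probes Aen was -0.088 and Zmat3 -0.20, and under median centring Rps27l was -0.30 and Zmat3 -0.22. As with Rrm2b, these differences stood beside Cy3 signals that were higher on the oxaliplatin arrays, by 0.81 for Rps27l, 0.53 for Zmat3, 0.49 for Tigar and 0.25 for Aen. Cy3 is the denominator of the ratio by whose p these 4 were picked, so part of this is arithmetic. Sesn2, a stress-induced relative of Sesn1, differed by 0.40 ± 0.17 (adjusted p = 0.342), and by 0.17 under median centring. The growth arrest gene Gadd45a differed by 0.068, and the secreted stress factor Gdf15 by -0.23, where the Cy3 spot of Gdf15 was too dim to stand well clear of background on either oxaliplatin array. Btg2, an antiproliferative target, differed by -0.13 ± 0.40, with ratios of 1.72 and 1.00 on the oxaliplatin arrays and 2.11 and 0.88 on the vehicle arrays, so that its arrays varied more within the groups than between them. No accession mapped to Eda2r.

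Of 30 p53 regulators and DNA damage signalling genes 23 were measured, with 0 called (0% of all genes). Their median difference was 0.035, beside 0.0055 over all genes, with 13 above 0 (51.2% of all genes) and 10 below. Mdm4, the partner of Mdm2 in holding p53 back, differed by -0.18. The checkpoint kinase Chek1 differed by 0.39 and the break repair protein Rad50 by 0.25. The deubiquitinase Usp10 differed by -0.27 and Cdkn2a, whose Arf product inhibits Mdm2, by 0.30. Their adjusted p values were 0.308 or more. Under median centring Chek1 was 0.21, Usp10 -0.15 and Cdkn2a 0.11. Of 25 genes of the apoptosis machinery 24 were measured, with 0 called (0% of all genes). Their median difference was 0.088, with 17 above 0 (51.2% of all genes) and 7 below. Diablo, which relieves the inhibition of caspases, differed by 0.49 ± 0.18 (adjusted p = 0.316), Casp9 by 0.35 and the caspase inhibitor Birc3 by 0.26. Diablo was 0.25 to 0.72 over the alternatives. Casp9 was 0.019 with the mean over probes. Birc3 was 0.016 under median centring and 0.59 from the log ratios of the scanner files. Cytochrome c (Cycs), released when Bax opens mitochondria, differed by -0.32, and by -0.17 with the mean over probes.

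Among 24 partners of p21 and cell cycle genes, 22 were measured and 0 were called (0% of all genes). The median difference was -0.047, beside 0.0055 over all genes, with 10 above 0 (51.2% of all genes) and 12 below. At an unadjusted p under 0.05 in limma's test there were 7 of the 22, against 14.6% of all genes. Cyclin A2 (Ccna2) had ratios of -0.043 and -0.35 on the oxaliplatin arrays and 0.58 and 0.47 on the vehicle arrays, a difference of -0.72 ± 0.14 (adjusted p = 0.294). Rrm2, the S-phase relative of Rrm2b, differed by -0.61 ± 0.14, in the same direction as Rrm2b, and by -0.30 with the mean over probes. Ccnd2 differed by 0.56 and Cdk4 by 0.69. Over the alternatives Ccna2 was -0.94 to -0.51 and Cdk4 0.44 to 0.94. In Cy3 Ccna2 differed by 0.93, Rrm2 by 0.53, Ccnd2 by -0.67 and Cdk4 by -0.84, each opposite in sign to its ratio and larger in size than in Cy5, where the 4 lay within -0.16 to 0.18. The 4 were picked by their p in the ratio, whose denominator is Cy3, so part of this is arithmetic. The activity and early stress genes had 12 of 12 measured, 0 called (0% of all genes) and a median difference of 0.15. Of these, 8 lay above 0 (51.2% of all genes) and 4 below, and 2 had an unadjusted p under 0.05 (14.6% of all genes). Atf3, a stress factor of injured neurons that p53 can also induce, had ratios of 1.54 and 2.02 on the oxaliplatin arrays and 1.30 and 0.93 on the vehicle arrays. Its difference was 0.67 ± 0.20 (adjusted p = 0.296), and 0.43 to 0.91 over the alternatives. Arc differed by 0.37, Gadd45b by 0.27 and Fos by -0.26.

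**Figure D4:**
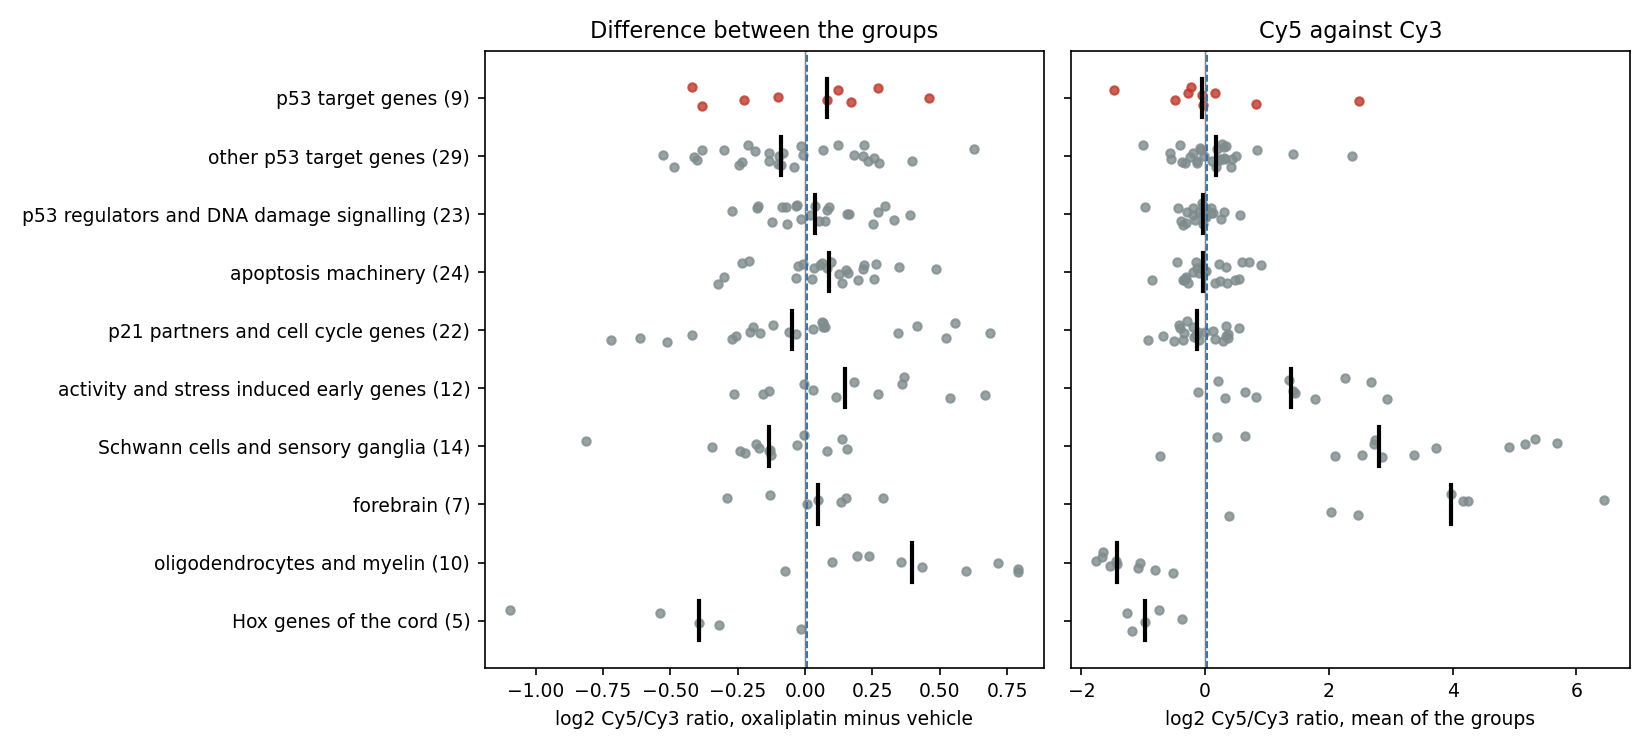
Log2 Cy5/Cy3 ratio of every measured gene of 10 lists, 1 point per gene with the number measured in brackets, as the difference between oxaliplatin and vehicle (left) and as the mean of the groups (right), with a black bar at each list's median and a dashed line at the median of all genes. The p53 targets (red) centre near 0 on the left, at 0.081, while on the right the forebrain and sensory ganglion genes lie far above 0 and the myelin genes below it.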

How the data were processed

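RNA from 2 oxaliplatin and 2 vehicle samples, placed in groups by their titles, was read with untreated RNA on 4 Agilent arrays. Each deposited scanner file gives, per the file headers, a median pixel intensity per spot and channel with its local background, a processed intensity that the software had background-subtracted and dye-normalised, and a log10 ratio of Cy5 over Cy3. Feature Extraction is at version 10.7.1.1 in the headers but 8.5.1.1 in the submitters' processing notes. The authors' value table holds log10 ratios, which lay within 0.0050 of the scanner ratios of the same spots. Its medians were -0.00277 and 0 on the oxaliplatin arrays and -0.00492 and -0.00316 on the vehicle arrays. Columns left unmapped numbered 0.

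Signals were corrected with normexp (offset 50, limma 3.58.1, R 4.3.3) and the log2 ratios normalised by loess within arrays, controls at weight 0. Controls and outlier spots were left out and spots of a probe averaged. Of 30367 probes 26004 were kept, with Cy5 well above background on at least 2 arrays, and 18758 of all probes had a symbol through RefSeq. Each gene was taken by its brightest probe. The fit over 22822 genes (lmFit, eBayes, residual df 2, prior df 4.74) was 2-sided with Benjamini-Hochberg adjustment. It was also run on simulated ratios with independent noise and no slide effect, which cannot show how it behaves under this design. Named genes were the members, up to 4 genes of each described list with the smallest unadjusted p, the first markers of each tissue list, and Mdm4, Gadd45a, Gdf15, Atf3, Eda2r, Btg2 and Sesn2. Results of some genes that this rule names are not reported here. The members and lists were chosen with earlier results of these data known. Saturated spots numbered 1, in Cy3 of oxaliplatin replicate 1, and the number of arrays limits the precision.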

Additional observations from a re-analysis of the deposited data

Results flagged for a closer look

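Rrm2b had a log2 Cy5/Cy3 ratio below 0 on both oxaliplatin arrays (-0.24 and -0.24) and above 0 on both vehicle arrays (0.11 and 0.24). Such opposite signs were found for 6.07% of all genes. The difference of -0.42 was tested in the fit over all genes and did not pass (limma, adjusted p = 0.294).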

How the results depend on the processing

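Over the alternatives, 121 of the 126 values of the 9 genes for oxaliplatin against vehicle kept their direction and their side of the threshold, as did 115 of 126 for Cy5 against Cy3, 79 of 90 in Cy5 alone and 83 of 90 in Cy3 alone. Part of this was fixed beforehand. Where the groups did not overlap, leaving out an array could not turn the sign of a difference. Changing the filter on dim probes left the ratio differences of the 9 genes as they were, and averaging could move only genes with more than 1 probe. A replicate block cannot move a balanced difference, and the authors' value table nearly repeats the scanner ratios. Apart from the counts below, the genes passing between oxaliplatin and vehicle numbered 3 with scaled ratios. The same replicate numbers in the labels do not show that arrays were paired, and same-numbered arrays deviated with a correlation of -0.22 over genes. With the replicate block the counts were 3 in the ratio, 11629 in Cy5 against Cy3, 6 in Cy5 and 0 in Cy3, and with the numbers crossed, a setting chosen after seeing the data, 537 in the ratio. Leaving out 1 array gave 2 to 950 genes in the ratio: 950 and 15 after dropping oxaliplatin replicates 1 and 2 in turn, and 33 and 2 after dropping vehicle replicates 1 and 2 in turn. In Cy5 it gave 0 to 6936 genes (6936 without vehicle replicate 1, 727 without vehicle replicate 2), and in Cy3 0 to 2214 (2214 without vehicle replicate 1, 116 without vehicle replicate 2, 1 without oxaliplatin replicate 2). A group is then 1 array, assumed to vary like the other group.

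The median of the 9 genes for oxaliplatin against vehicle moved to 0.23 under median centring and to 0.018 when probes were averaged, and lay at 0.049 to 0.12 when leaving out an array. For Cy5 against Cy3 it became 0.14 under median centring, and -0.13 both from the log ratios of the scanner files and from the authors' value table. In Cy5 it was -0.0038 with the mean over probes and 0.15 with the scanner's processed signal at the 75th percentile. With median centring Bbc3 was at 0.056 and Btg2 at 0.016 for oxaliplatin against vehicle, and Cdkn1a at 0.16 and Mdm2 at 0.14 for Cy5 against Cy3. Without background subtraction Rrm2b was at 0.036 for Cy5 against Cy3. In Cy5 with the processed signal Bax was at 0.18 and Bbc3 at 0.12, and with the mean over probes Cdkn1a was at -0.0038 in Cy5 and -0.17 in Cy3. Leaving out 1 array turned signs within these ranges: in the ratio Bbc3 -0.29 to 0.092, Plk2 -0.50 to 0.049, Btg2 -0.75 to 0.48, Fos -0.54 to 0.013 and Gadd45a -0.069 to 0.20; for Cy5 against Cy3 Rrm2b -0.068 to 0.0006; in Cy5 Bax -0.094 to 0.06, Bbc3 -0.11 to 0.089 and Phlda3 -0.37 to 0.14; in Cy3 Ccng1 -0.23 to 0.057, Bax -0.026 to 0.80, Bbc3 -0.18 to 0.43 and Cdkn1a -0.041 to 0.46. The cause was not tested for any of these. An offset of 0 in normexp, added after seeing the data, turned no sign among the 9 genes. Signal near background limits Rrm2b, and low signal Plk3.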
